A study of Homo sapiens with 12 samples.

Results

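Zinc transporters and metallothioneins are the genes that move zinc ions across membranes and bind them in the cell. They were followed here in HEK cells, which come from human embryonic kidney, in stable lines where tetracycline turns on a transgene for TRPM7, a channel permeable to zinc, magnesium and calcium that carries a kinase at its end. Members were chosen by the symbol of the array annotation: every SLC30A and SLC39A gene with a number, the MT1 genes with a letter, MT2A, MT3 and MTF1. This gave 33 of the 19775 genes with a probe set of their own, namely 8 metallothionein genes, MTF1, 10 SLC30A genes and 14 SLC39A genes, measured by 72 probe sets (a probe set is a group of short probes for 1 transcript). MT1A had no probe set of that symbol in the annotation used here.

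The 4 groups of 3 Affymetrix arrays were the WT line given tetracycline, the WT line untreated, the mutant line given tetracycline and the mutant line untreated. The WT line carried the wild-type channel. The mutant line carried TRPM7DKD, a channel that lacks its whole kinase domain, and served as the control for effects of tetracycline itself. Both lines grew in 5 ug/mL blasticidin, and tetracycline was given for 72 hours as 1 ug with no volume stated. Whether a line was 1 clone is not given in the sources used here, nor whether arrays of a group stem from separate cultures. The p-values therefore cover the spread between these samples, which may be technical.

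Zinc in cells is handled by a small set of proteins with opposite tasks. Most SLC30A proteins (ZnT) carry zinc out of the cytosol, either out of the cell or into vesicles and the Golgi, and SLC39A proteins (ZIP) carry it into the cytosol. Metallothioneins are short cysteine-rich proteins that bind zinc and copper, and MTF1 is the transcription factor that senses free zinc and switches on metallothionein genes and SLC30A1 through metal response elements in DNA.

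Values are MAS5 signals, a fluorescence intensity which the authors had scaled to a common trimmed mean per array, given here on the log2 scale. Each gene is read by its brightest probe set. A gene counted as expressed, and was tested, if at least 1 of its group means exceeded 6.39, which is the median over the whole table. The number of arrays limits the precision. Of 10 matched markers of HEK cells and embryonic kidney 9 passed this level, while 0 of 4 blood and immune genes did, and 2 of 7 fibroblast and endothelial genes. Of all 19775 genes 13067 passed it by their brightest probe set. All 4 neuronal genes of the marker list passed it, and 2 of these rose with tetracycline in the WT line, MAP2 2.83-fold (adjusted p = 0.000753) and INA by 0.86 ± 0.173 (adjusted p = 0.00425), as did 1 of the 2 fibroblast and endothelial genes, COL1A1, by 0.88 ± 0.196 (adjusted p = 0.00748). MAP2 gave 0.97 ± 0.225 in the mutant line, with all treated arrays above the untreated ones. Its difference between the changes of both lines did not pass (0.53, limma adjusted p = 0.468). Of the kidney markers, VIM rose in the WT line by 0.65 ± 0.103 (limma adjusted p = 0.00107). WT1 fell there by 0.58 ± 0.178 (limma adjusted p = 0.0377). Markers also differed between the lines. For WT over mutant untreated, 0 of 9 tested kidney markers were called higher and 1 lower, KRT8, at -1.14 ± 0.176 (limma adjusted p = 0.00142). Of the 4 neuronal genes 0 were higher and 1 lower, INA, at -0.77 ± 0.173 (limma adjusted p = 0.0104). With tetracycline KRT8 gave -0.96 (limma adjusted p = 0.00159), and VIM was the 1 kidney marker called higher, at 0.29 (limma adjusted p = 0.0479). The part of other cell states in the results on zinc genes was not tested. Fewer cells of a type and less RNA per cell cannot be told apart in such samples. TRPM7 itself read 8.19, 7.79 and 6.88 on WT arrays with tetracycline, against 8.69, 8.12 and 8.60 on untreated WT arrays, and 8.53, 8.04 and 7.99 on mutant arrays with tetracycline, against 8.45, 8.47 and 8.25 on untreated mutant arrays. Its mean signal was not higher with tetracycline in either line, so it does not check the tetracycline labels. The log2 ratio of 3′ to 5′ beta-actin control signal, a sign of RNA quality, averaged 1.05 ± 0.265 on the 6 WT arrays and 0.259 ± 0.0262 on the 6 mutant arrays (SD; exact 2-sided permutation p = 0.00216, as small as this design allows). Treatment did not separate it within the WT line (exact permutation p = 0.6) or the mutant line (exact permutation p = 0.5). The same ratio of the GAPDH control did not separate the lines. It averaged 0.0831 ± 0.063 on the WT arrays and 0.0745 ± 0.0365 on the mutant arrays (SD, exact permutation p = 0.779). The median SD per tested probe set was 0.326 for WT with tetracycline and 0.299 for WT untreated, against 0.19 for mutant with tetracycline and 0.174 for mutant untreated. The fit takes a single spread for all groups, which is narrower than that of the noisier WT arrays.

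Of the 33 members 28 were expressed, beside 13067 of all 19775 genes, and 26 of the 28 were above that level in all 4 groups. The 5 members below it in every group were MT1M, SLC30A8, which loads zinc into insulin granules of beta cells, and SLC39A2, SLC39A5 and SLC39A12. MT3, a metallothionein known from brain, and SLC30A2, which loads zinc into vesicles, were near the level and above it in only some groups. MT3 averaged 6.39 ± 0.62 in WT with tetracycline, 4.77 ± 1.89 in WT untreated, 6.13 ± 0.68 in mutant with tetracycline and 6.39 ± 0.40 in mutant untreated (SD, n = 3 each).

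The metallothionein genes lie next to one another on chromosome 16 and are close copies, which matters for how their signals can be read. By the naming of the array maker, a probe set ending in x_at holds probes that also match other transcripts. All 9 bright metallothionein probe sets of the members were of this kind, with highest group means from 8.31 upward, as was a bright probe set of the near copy MT1HL1. The 3 member probe sets without that ending were those of MT1M, MT3 and the other probe set of MT1G, and they were dim. That MT1G probe set had a mean of 4.24, below the level, and the probe set used for MT1G had a mean of 9.07. The MT1 signals below may therefore be shared among MT1 genes, and how much each gene contributed was not tested.

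The promoters of these genes are shown because MTF1 acts through them. The stretches are the 250 bases before the annotated start in RefSeq's GRCh38.p14, on the gene's own strand, and capitals mark the core of the metal response element, TGCACNC or TGCGCNC, on either strand. The table held promoters for 25 of the 33 members, 3 of them metallothionein genes. MT1X (chr16:56682220-56682469, plus strand) held 4 cores, MT2A (chr16:56608334-56608583, plus strand) 7, MT1H (chr16:56669564-56669813, plus strand) 8 and SLC30A1 (chr1:211579162-211579411, minus strand) 1.
MT1X: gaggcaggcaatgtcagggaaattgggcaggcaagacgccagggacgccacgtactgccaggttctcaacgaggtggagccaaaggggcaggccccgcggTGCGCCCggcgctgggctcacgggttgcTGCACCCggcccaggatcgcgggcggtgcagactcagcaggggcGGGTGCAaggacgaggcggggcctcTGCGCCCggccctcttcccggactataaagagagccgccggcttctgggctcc
MT2A: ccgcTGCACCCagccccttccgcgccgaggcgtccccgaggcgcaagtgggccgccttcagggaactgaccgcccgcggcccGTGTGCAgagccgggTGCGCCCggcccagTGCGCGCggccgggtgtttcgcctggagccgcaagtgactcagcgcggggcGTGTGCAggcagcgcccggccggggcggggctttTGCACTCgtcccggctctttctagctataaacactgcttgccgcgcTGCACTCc
MT1H: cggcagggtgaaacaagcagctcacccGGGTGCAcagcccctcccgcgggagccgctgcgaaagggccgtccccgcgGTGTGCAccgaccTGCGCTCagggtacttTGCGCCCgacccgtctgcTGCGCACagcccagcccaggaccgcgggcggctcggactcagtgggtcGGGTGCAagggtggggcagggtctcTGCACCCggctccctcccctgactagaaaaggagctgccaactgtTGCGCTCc
SLC30A1: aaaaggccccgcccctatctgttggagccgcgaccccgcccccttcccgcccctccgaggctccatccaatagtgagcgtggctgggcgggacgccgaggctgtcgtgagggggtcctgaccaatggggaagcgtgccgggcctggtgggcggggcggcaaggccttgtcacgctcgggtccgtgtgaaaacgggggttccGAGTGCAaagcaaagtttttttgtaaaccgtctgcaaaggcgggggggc
At least 3 cores were found in 1.58% of all 35116 promoters in the table and in 4 of 34 promoters of the members, which were those of MT1X, MT2A, MT1H and SLC30A2. At least 1 core was found in 24.8% of all promoters and in 14 of the 34. Of the transporters that changed below, SLC30A1, SLC30A4 and SLC39A3 held 1 core each, and SLC39A10, SLC39A11 and SLC39A7 held 0 in these windows, while SLC39A4 was not matched. A match is only a match of letters.

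With tetracycline in the WT line the metallothionein signals did not pass the test in either direction. MT1X, a widely expressed MT1 gene, read 9.49, 10.27 and 10.73 on WT arrays with tetracycline, 10.21, 10.49 and 10.73 on untreated WT arrays, 11.04, 10.98 and 11.16 on mutant arrays with tetracycline and 11.24, 11.23 and 11.40 on untreated mutant arrays. MT2A, the main form in many human cells, read 10.72, 11.11 and 11.31 on WT arrays with tetracycline, 11.11, 11.15 and 11.24 on untreated WT arrays, 11.38, 11.24 and 11.71 on mutant arrays with tetracycline and 11.51, 11.53 and 11.60 on untreated mutant arrays. In both genes the lowest array was WT tetracycline replicate 1, and the WT groups overlapped. The change in the WT line was -0.32 ± 0.237 for MT1X (SE of limma, n = 3 against 3, adjusted p = 0.389) and -0.12 ± 0.16 for MT2A (adjusted p = 0.638).

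The other MT1 genes overlapped between treated and untreated arrays of the WT line as well. MT1E read 7.29, 8.14 and 8.37 on WT arrays with tetracycline, 7.49, 7.37 and 8.31 on untreated WT arrays, 8.45, 8.41 and 8.05 on mutant arrays with tetracycline and 8.68, 8.94 and 8.40 on untreated mutant arrays. MT1F read 8.40, 9.17 and 9.29 on WT arrays with tetracycline, 8.76, 9.03 and 9.30 on untreated WT arrays, 9.03, 9.49 and 9.93 on mutant arrays with tetracycline and 9.68, 9.72 and 10.15 on untreated mutant arrays. In both, the untreated mutant arrays were all above the untreated WT arrays. MT1G read 8.98, 9.46 and 9.10 on WT arrays with tetracycline, 8.22, 8.90 and 9.78 on untreated WT arrays, 8.62, 9.08 and 9.26 on mutant arrays with tetracycline and 8.50, 9.66 and 9.31 on untreated mutant arrays. MT1H read 8.59, 9.46 and 8.82 on WT arrays with tetracycline, 8.62, 8.79 and 9.71 on untreated WT arrays, 9.11, 9.53 and 9.89 on mutant arrays with tetracycline and 9.68, 9.32 and 10.22 on untreated mutant arrays. Neither MT1G nor MT1H separated any pair of groups compared. MT3 read 5.78, 7.02 and 6.37 on WT arrays with tetracycline, 3.87, 3.5 and 6.95 on untreated WT arrays, 5.96, 6.88 and 5.55 on mutant arrays with tetracycline and 6.19, 6.13 and 6.85 on untreated mutant arrays. Its spread among untreated WT arrays was the widest of the tested metallothioneins, and its WT change of 1.62 ± 0.764 did not pass (adjusted p = 0.163). It was called without WT untreated replicate 3, the untreated WT array that lay high. That call thus rests on which array was left out, for a gene near the expression level of 6.39.

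**Figure D1:**
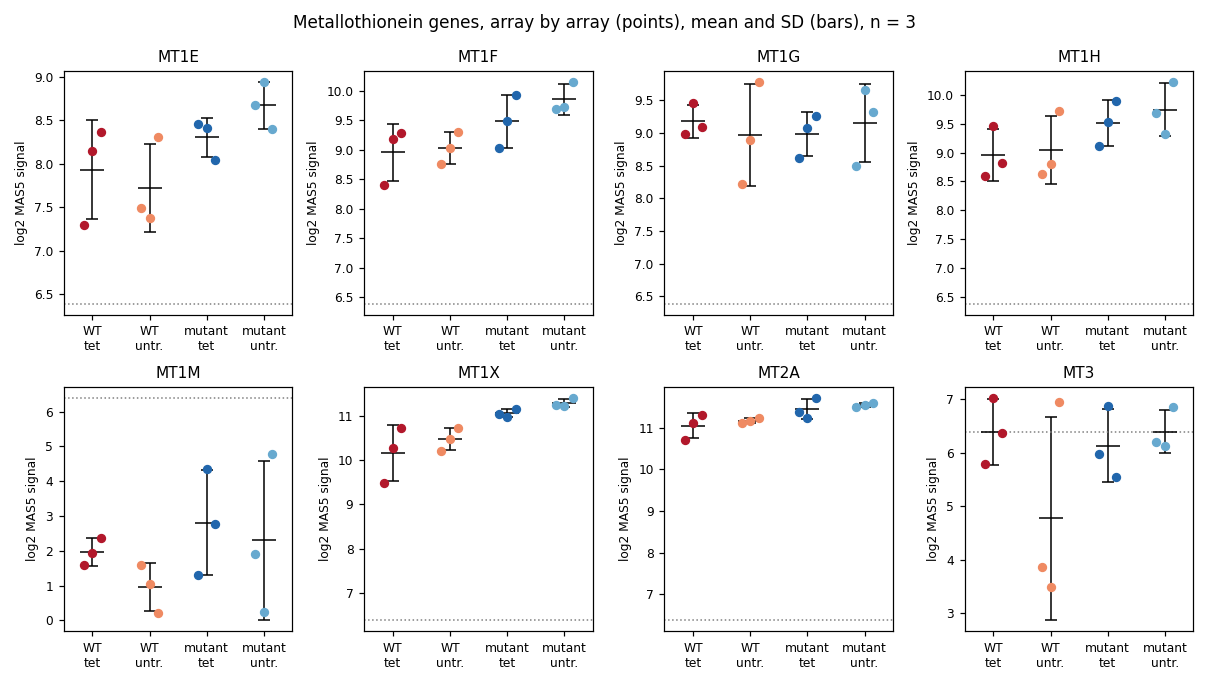
log2 MAS5 signal (vertical axis) of the 8 metallothionein genes on each array (points, 3 per group), with the group mean and SD (bars); the dotted line is the expression level of 6.39. The MT1X arrays of the WT line, at 9.49 to 10.73, all lie below those of the mutant line, at 10.98 to 11.40, while MT1M lies below the dotted line on all arrays.

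Over the 7 tested metallothioneins 0 rose and 0 fell in the WT line, with a median change of -0.08, beside a median of 0.02 over all 29553 tested probe sets. Of all genes tested by their brightest probe set 9.41% rose and 8.57% fell there, so a count of 0 among 7 says little. In the mutant line 0 of the 7 passed as well, beside 0% of all genes. All 7 values there were below 0, from -0.37 to -0.10, with a median of -0.23 against 0.00 over all probe sets. The signals of these genes may be shared, so 7 values of the same sign are not 7 separate observations.

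MTF1, the zinc sensor of the set, read 9.25, 9.36 and 9.98 on WT arrays with tetracycline, against 9.16, 8.71 and 9.21 on untreated WT arrays, and 9.20, 9.45 and 9.42 on mutant arrays with tetracycline, against 9.34, 9.29 and 9.34 on untreated mutant arrays. The WT groups did not overlap, with 1 treated array well above the rest, but the change of 0.50 ± 0.204 did not pass (adjusted p = 0.105). Its other probe sets gave 0.48 (adjusted p = 0.227) and 0.19 (adjusted p = 0.691).

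Treated against untreated WT arrays show the change under tetracycline and the wild-type channel at once. Among the transporters 2 genes rose and 1 fell. SLC30A4, which loads zinc into endosomal and lysosomal vesicles, rose 1.59-fold, SLC39A10, a zinc importer of the plasma membrane, rose 1.45-fold, and SLC39A11, a ZIP protein found in the Golgi, was 1.62-fold lower. With these, 3 of 28 tested members passed, beside 18.0% of the 13067 genes tested by their brightest probe set (9.41% higher and 8.57% lower) and 16.9% of all tested probe sets (7.83% higher and 9.11% lower). The share of the members was thus not above the background. At an unadjusted p under 0.05 there were 9 of 28, beside 31.2% of all probe sets, and groups did not overlap for 5 of 28, beside 27.5% of all genes. The median change was 0.12 over the members and 0.02 over all tested probe sets.

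SLC30A4 read 9.75, 10.43 and 10.34 on WT arrays with tetracycline, against 9.47, 9.85 and 9.18 on untreated WT arrays, and 9.06, 9.19 and 9.02 on mutant arrays with tetracycline, against 9.13, 8.80 and 8.95 on untreated mutant arrays. The WT groups overlapped by 1 array on each side, and the WT change was 0.67 ± 0.211 (SE, adjusted p = 0.0411). SLC39A10 read 11.50, 11.51 and 11.66 on WT arrays with tetracycline, against 10.70, 11.33 and 11.04 on untreated WT arrays, and 11.32, 10.99 and 10.96 on mutant arrays with tetracycline, against 11.06, 10.88 and 10.70 on untreated mutant arrays. All treated WT arrays were above all untreated ones, with a change of 0.54 ± 0.168 (adjusted p = 0.0409). SLC39A11 read 7.67, 8.06 and 7.93 on WT arrays with tetracycline, against 8.42, 8.61 and 8.73 on untreated WT arrays, and 8.42, 8.33 and 8.29 on mutant arrays with tetracycline, against 8.21, 8.26 and 8.30 on untreated mutant arrays. Its treated WT arrays were below all 9 other arrays, with a WT change of -0.70 ± 0.186 (adjusted p = 0.0197).

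These calls rest on the spread taken over all groups: with the 6 WT arrays alone none of the 3 passed (adjusted p = 0.159 for SLC30A4, 0.137 for SLC39A10 and 0.14 for SLC39A11). Without the replicate 3 arrays of all groups they had adjusted p of 0.436, 0.273 and 0.205. SLC39A11 lost its call when WT untreated replicate 3 was left out (adjusted p = 0.0686), and kept it without any other single array. SLC30A4 was called without WT tetracycline replicate 1 or WT untreated replicate 2 and not without any other single array, and SLC39A10 kept its call only without WT tetracycline replicate 1, WT untreated replicate 2, mutant tetracycline replicate 1 or mutant untreated replicate 3. The other tested probe set of SLC30A4 gave -0.05 (adjusted p = 0.981). SLC39A10 and SLC39A11 had 1 probe set each, so no other could be compared.

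Other transporters came near the threshold in the WT line. SLC30A7, which carries zinc into the Golgi, read 10.24, 10.01 and 10.39 on WT arrays with tetracycline, against 10.81, 10.47 and 10.60 on untreated WT arrays, and 10.15, 9.96 and 9.99 on mutant arrays with tetracycline, against 10.28, 10.05 and 10.16 on untreated mutant arrays. The WT groups did not overlap, and the change of -0.41 ± 0.152 did not pass (adjusted p = 0.0765). Another SLC30A7 probe set fell, by 0.61 ± 0.18 (adjusted p = 0.0324). SLC30A6, which pairs with SLC30A5 in the early secretory pathway, read 9.86, 9.17 and 8.91 on WT arrays with tetracycline, against 10.15, 9.54 and 10.00 on untreated WT arrays, and 9.23, 9.14 and 9.20 on mutant arrays with tetracycline, against 9.34, 9.40 and 9.25 on untreated mutant arrays. The change in the WT line was -0.58 ± 0.224 (adjusted p = 0.0875), with overlapping groups. SLC30A1, the exporter of the plasma membrane and an MTF1 target, read 11.82, 11.73 and 11.95 on WT arrays with tetracycline, against 11.90, 10.93 and 11.31 on untreated WT arrays. Untreated replicate 1 was within the treated range, and the change was 0.45 ± 0.193 (adjusted p = 0.125). SLC39A7, which releases zinc from the endoplasmic reticulum and Golgi, gave 0.53 ± 0.222 (adjusted p = 0.115), with all treated WT arrays above the untreated ones.

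The remaining transporters showed no call in the WT line. SLC30A5, SLC30A9, which exports zinc from mitochondria into the cytosol, and SLC30A10, an exporter of manganese, gave 0.12, -0.32 and 0.60. SLC39A6, SLC39A8 and SLC39A14 gave 0.13, 0.08 and -0.23; SLC39A8 and SLC39A14 also carry manganese, iron and cadmium. SLC39A1 and SLC39A3, importers of the plasma membrane, gave 0.13 and -0.16, SLC39A4 -0.13, SLC39A9, found in the secretory pathway, 0.33 (adjusted p = 0.126) and SLC39A13, a transporter of the Golgi and vesicles, 0.08. SLC30A2 gave 0.13 and SLC30A3, which fills synaptic vesicles with zinc, 0.44 ± 0.368 (adjusted p = 0.443). Over the family, 1 of 9 tested SLC30A genes rose and 0 fell, with a median of 0.13. Of 11 tested SLC39A genes 1 rose and 1 fell, with a median of 0.08. Of all genes 9.41% rose and 8.57% fell.

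**Figure D2:**
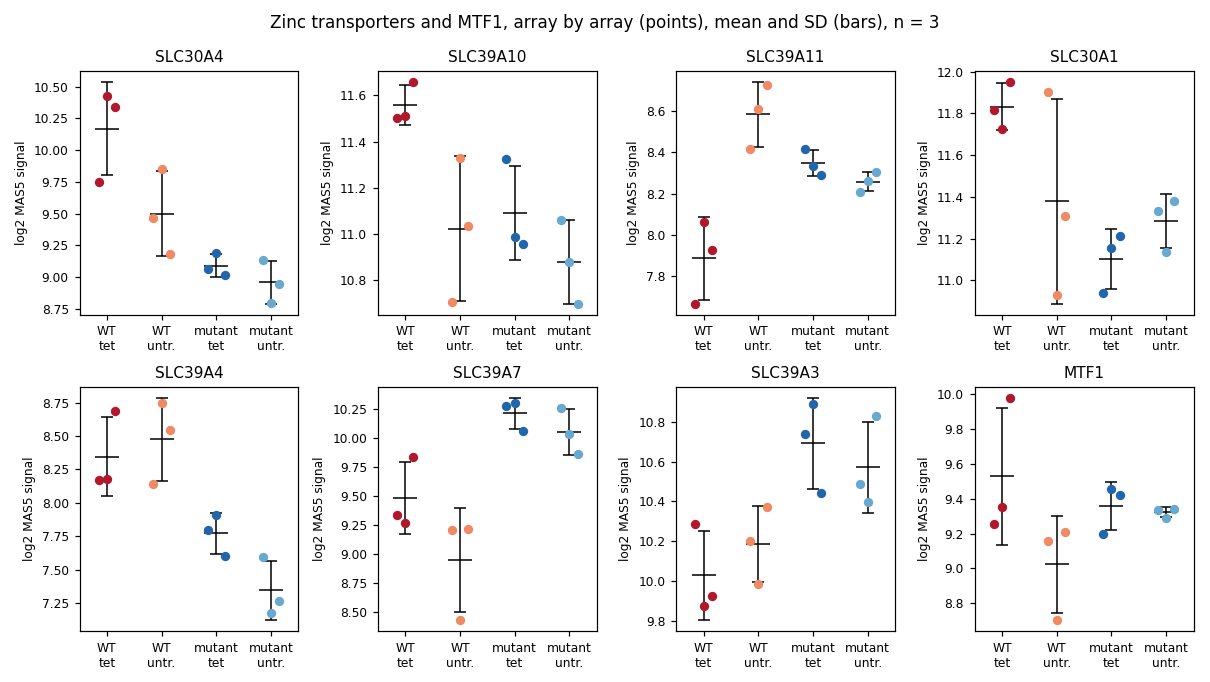
log2 MAS5 signal (vertical axis) on each array (points, 3 per group), with the group mean and SD (bars), for 7 transporters and MTF1. The treated WT arrays of SLC39A11, at 7.67 to 8.06, lie below all other arrays, and those of SLC39A10, at 11.50 to 11.66, above all others.

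In the mutant line, where the inducer meets a channel without its kinase, 0 of 28 members passed by limma, beside 0% of all genes and probe sets. At an unadjusted p under 0.05 the count was 0 of 28, beside 2.10% of all probe sets. The 6 members with the smallest p were SLC30A9, SLC39A4, SLC30A10, MT1F, SLC39A10 and MT1E. SLC30A9 read 10.99, 10.98 and 11.12 on mutant arrays with tetracycline, against 11.39, 11.44 and 11.10 on untreated mutant arrays, a change of -0.28 ± 0.154. SLC39A4, the importer of zinc in the gut, read 7.80, 7.91 and 7.61 on mutant arrays with tetracycline, against 7.60, 7.18 and 7.27 on untreated mutant arrays, a change of 0.43 ± 0.235. SLC30A10 read 7.55, 7.12 and 7.36 on mutant arrays with tetracycline, against 6.43, 7.0 and 7.12 on untreated mutant arrays, a change of 0.50 ± 0.343. The treated arrays of SLC39A4 and SLC30A10 lay above the untreated ones by a narrow gap, and SLC30A9 overlapped (adjusted p = 1 for all 3). Groups of the mutant line did not overlap for 4 members, beside 12.5% of all genes.

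**Figure D3:**
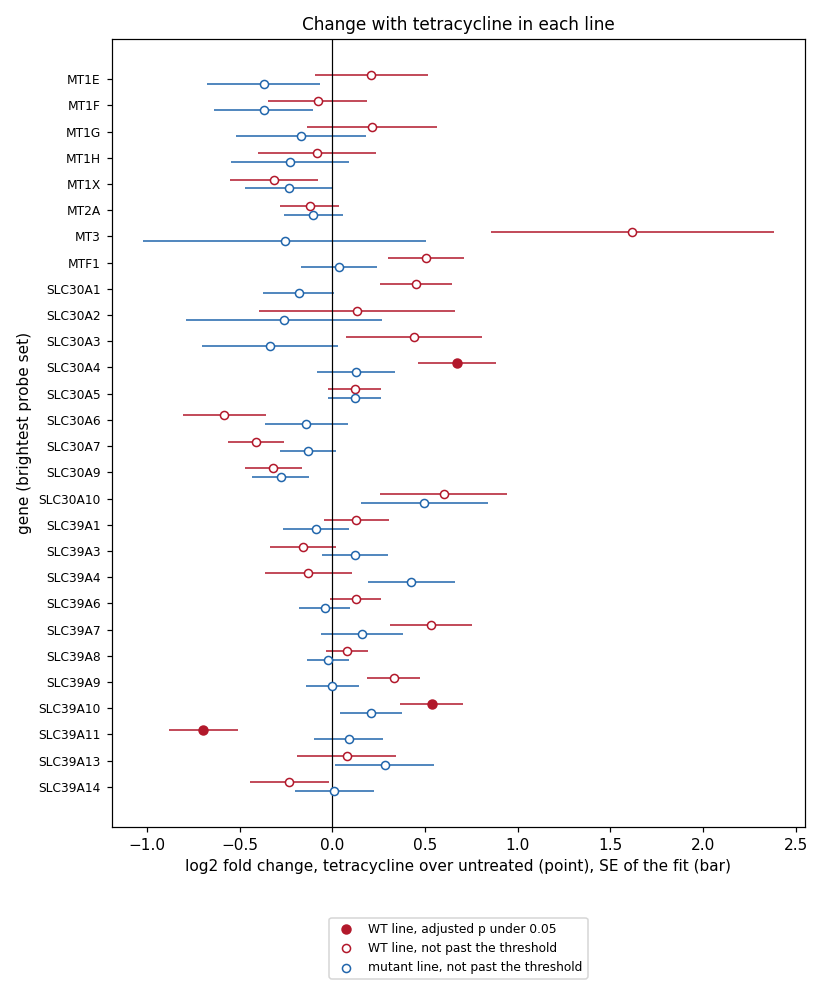
log2 fold change of tetracycline over untreated (horizontal axis, points) with the SE of the fit (bars) for the 28 tested members, in the WT line (red) and the mutant line (blue); filled points passed an adjusted p of 0.05. SLC30A4 and SLC39A10 are filled to the right of 0 and SLC39A11 to the left, all in the WT line, and no point of the mutant line is filled.

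The difference between the changes of both lines was tested directly, and limma called 0 of 28 members, beside 0.145% of all genes and 0.139% of all probe sets. At an unadjusted p under 0.05 there were 2 of 28, SLC39A11 and SLC30A1, beside 14.5% of all probe sets. The difference was -0.79 ± 0.263 for SLC39A11 (adjusted p = 0.197) and 0.63 ± 0.274 for SLC30A1 (adjusted p = 0.305). For SLC30A4 it was 0.54 ± 0.298 (adjusted p = 0.428) and for SLC39A10 0.32 ± 0.237 (adjusted p = 0.572). None of the 3 calls of the WT line was thus shown to differ from the mutant line.

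Between the untreated lines 1 metallothionein, MT1X, was lower in the WT line. MT1X was 1.76-fold lower in WT untreated than in mutant untreated arrays, with a difference of -0.81 ± 0.237 (SE, adjusted p = 0.0358), and the groups did not overlap. Its other probe set gave -0.88 ± 0.23 (adjusted p = 0.0218). Both MT1X probe sets are of the x_at kind and may share signal from other MT1 genes, so they are not separate readings of MT1X. All 7 tested metallothioneins had values below 0, with a median of -0.81 beside -0.09 over all tested probe sets. Of the 7, 1 passed, beside 12.7% of all genes. MT1E gave -0.95 ± 0.306 (adjusted p = 0.0536), MT1F -0.82 ± 0.267 (adjusted p = 0.0562), MT1H -0.70 (adjusted p = 0.167) and MT2A -0.38 ± 0.16 (adjusted p = 0.135). The other probe set of MT1F was called as lower in the WT line, at -1.36 ± 0.245 (adjusted p = 0.00336), while the other probe set of MT1E gave 0.05. With quantile normalization all 7 values were also below 0, with a median of -0.70. The MT1X call was lost in 7 of 12 fits that left out 1 array, which were WT untreated replicate 1 or 2, any untreated mutant replicate, or mutant tetracycline replicate 1 or 2 (adjusted p = 0.0518 to 0.12).

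Among the transporters of the untreated lines SLC39A4 was higher and SLC39A7 lower in the WT line. SLC39A4 read 8.14, 8.74 and 8.54 on WT untreated arrays, against 7.60, 7.18 and 7.27 on mutant untreated arrays. That is 2.19-fold higher, 1.13 ± 0.235 (adjusted p = 0.00731). SLC39A7 read 9.20, 8.43 and 9.22 on WT untreated arrays, against 10.26, 10.04 and 9.86 on mutant untreated arrays. It was 2.15-fold lower, -1.10 ± 0.222 (adjusted p = 0.00617). In both genes all arrays of 1 line lay on the same side of all arrays of the other, and each call held without any single array. SLC39A4 and SLC39A7 had 1 probe set each, so no other probe set could be compared. Without the replicate 3 arrays of all groups SLC39A4 missed the threshold (adjusted p = 0.0726). In all, 3 of 28 members passed, 1 higher and 2 lower, beside 12.7% of all genes (5.84% higher and 6.82% lower) and 12.9% of all probe sets. At an unadjusted p under 0.05 there were 12 of 28, beside 28.2% of all probe sets, and groups did not overlap for 15 of 28, beside 35.6% of all genes. Among all called probe sets 32.5% were higher in the WT line, and 43.2% with quantile normalization, where SLC30A4 also passed as higher.

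With tetracycline in both lines 5 of 28 members differed, 2 higher and 3 lower in the WT line, beside 28.2% of all genes (13.3% higher and 14.9% lower) and 27.6% of all probe sets. An unadjusted p under 0.05 was reached by 12 of 28, beside 39.7% of all probe sets, and groups did not overlap for 10 of 28, beside 41.9% of all genes. SLC30A4 was 2.12-fold higher, with 1.08 ± 0.211 (adjusted p = 0.00227) by its brightest probe set. The other tested probe set of SLC30A4, a dim one, had the opposite sign, -2.26 ± 1.04 (adjusted p = 0.12), and the average over the probe sets of the gene was 0.20 (adjusted p = 0.823). SLC30A1 was 1.66-fold higher, with 0.73 ± 0.193 (adjusted p = 0.0127). On mutant arrays with tetracycline SLC30A1 read 10.94, 11.15 and 11.21, all below the treated WT arrays. MT1X was 1.86-fold lower in WT, with -0.90 ± 0.237 (adjusted p = 0.0125), and this call held in each of the 22 alternative fits. SLC39A7 was 1.66-fold lower, with readings of 9.34, 9.27 and 9.84 on WT arrays with tetracycline, against 10.28, 10.30 and 10.06 on mutant arrays with tetracycline (-0.73 ± 0.222, adjusted p = 0.0252). SLC39A3 was 1.58-fold lower, with 10.29, 9.87 and 9.93 on WT arrays with tetracycline, against 10.74, 10.89 and 10.44 on mutant arrays with tetracycline (-0.66 ± 0.178, adjusted p = 0.0137). A dim probe set of SLC39A3 gave 0.33 ± 0.551 (adjusted p = 0.691), and the average over its probe sets was -0.11 (adjusted p = 0.862). SLC39A4 read 8.17, 8.18 and 8.69 on WT arrays with tetracycline, above all treated mutant arrays, and missed the threshold at 0.57 ± 0.235 (adjusted p = 0.0833). SLC39A7 lost its call without WT tetracycline replicate 2 or mutant tetracycline replicate 1 or 2, SLC39A3 without WT tetracycline replicate 2 or mutant tetracycline replicate 2, and SLC30A1 without mutant tetracycline replicate 1 (adjusted p up to 0.0942, 0.0693 and 0.0568). Without the replicate 3 arrays of all groups SLC30A1 and SLC30A4 were not called.

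**Figure D4:**
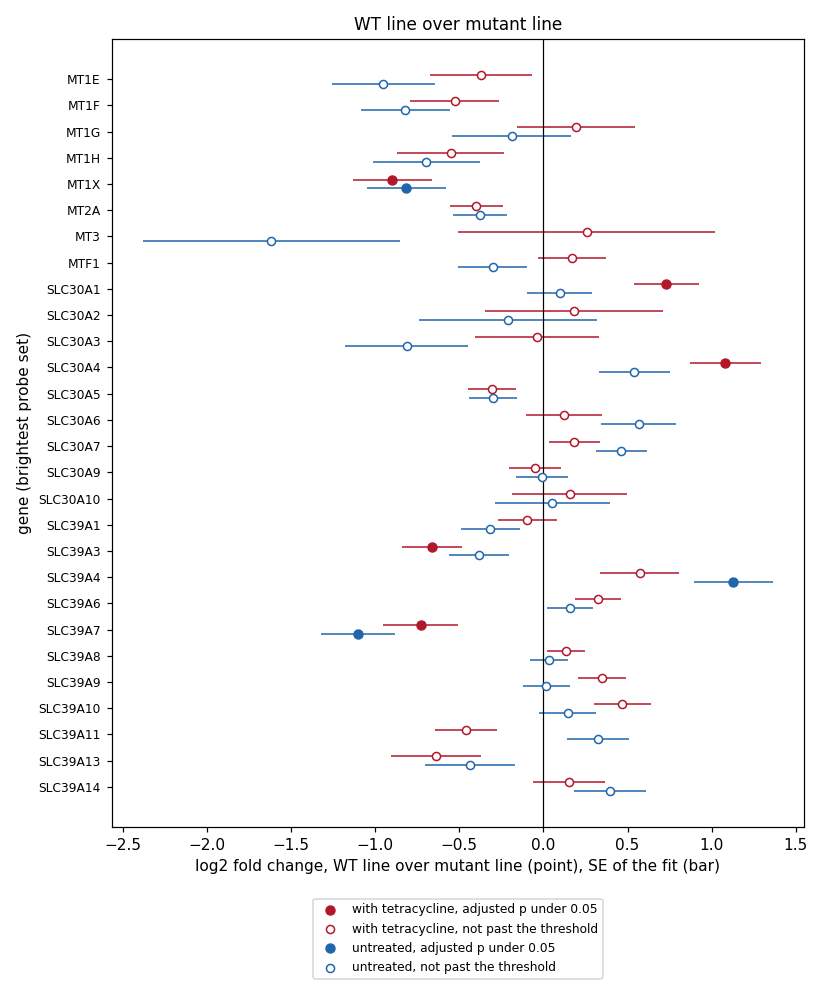
log2 fold change of the WT line over the mutant line (horizontal axis, points) with the SE of the fit (bars) for the 28 tested members, with tetracycline (red) and untreated (blue); filled points passed an adjusted p of 0.05. MT1X and SLC39A7 are filled on the left in both comparisons, and SLC30A4 and SLC30A1 are filled on the right with tetracycline.

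The calls between lines depended on which probe set of a gene was read. Of 16 members with more than 1 tested probe set, 9 had probe sets of opposite sign in the untreated lines and 10 with tetracycline, and 0 had calls in both directions. SLC30A1 gave 0.10 ± 0.193 with its brightest probe set in the untreated lines and -1.0 ± 0.286 (adjusted p = 0.0328) with the next, which read 8.62, 7.65 and 7.91 on WT untreated arrays, against 8.88, 9.12 and 9.18 on mutant untreated arrays. With tetracycline that probe set gave -0.29 (adjusted p = 0.472), where the brightest one was called as higher. SLC39A14 gave 0.40 (adjusted p = 0.242) with its brightest probe set and -0.95 ± 0.272 (adjusted p = 0.0327) with the next, and SLC39A6 gave 0.16 (adjusted p = 0.494) and, with its dimmest, -0.64 ± 0.151 (adjusted p = 0.0134). Of the 26 tested probe sets that were not the brightest of their gene, 5 were called in the untreated lines, all lower in WT (4.19% of all probe sets were called higher there and 8.70% lower), and 7 with tetracycline, 1 higher and 6 lower (10.2% higher and 17.3% lower over all). In the WT line with tetracycline against untreated, 1 of the 26 was called, as lower. The beta-actin 3′ to 5′ ratio also differed between the lines, as given above, while the GAPDH ratio did not separate them. The part of RNA quality in the differences between the lines was not tested.

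**Figure D5:**
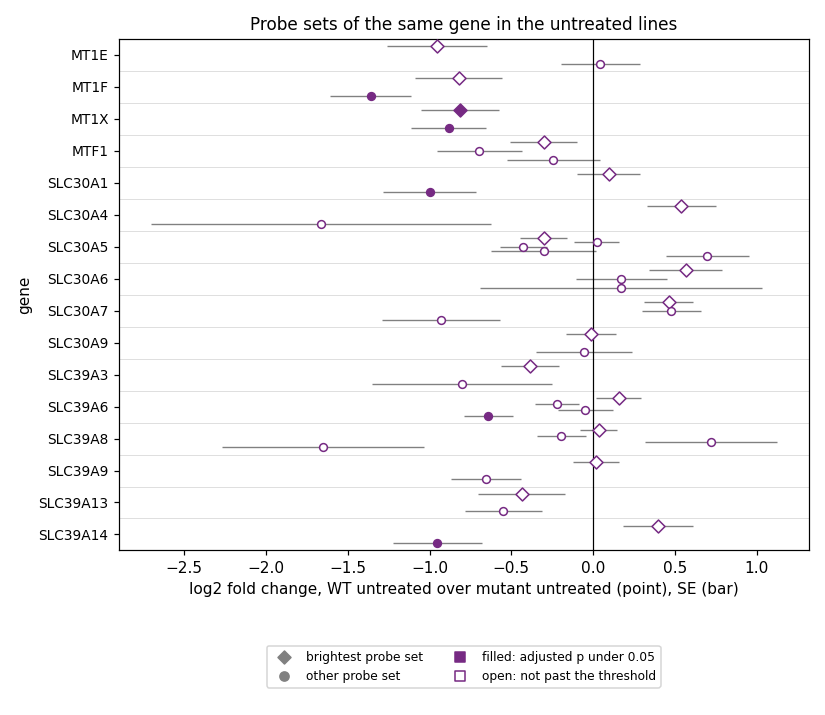
log2 fold change of WT untreated over mutant untreated (horizontal axis) with the SE (bars) for each tested probe set of the 16 members that have more than 1; diamonds are the brightest probe set, circles the others, and filled symbols passed an adjusted p of 0.05. For SLC30A1, SLC39A6 and SLC39A14 the diamond lies right of 0 and open, at 0.10, 0.16 and 0.40, and a circle lies filled on the left.

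Genes of neighbouring metal pathways were counted the same way for the WT line with tetracycline, where 18.0% of all genes were called, 9.41% higher and 8.57% lower. Of 13 tested copper transport genes 0 rose and 2 fell, with a median of -0.19. Of 11 tested iron genes 3 rose and 1 fell, with a median of 0.05; the iron-containing heme is broken down by HMOX1, which rose by 2.15 ± 0.307 (adjusted p = 0.000558). Of 7 tested genes on a list of other zinc-linked genes 0 passed, with a median of -0.37. The 7 included TRPM7 itself, which had the lowest value, -0.85 ± 0.297 (limma adjusted p = 0.0643). They also included CA2, SOD1 and KEAP1, which are neither transporters nor metallothioneins. Of 9 tested genes linked to MTF1 outside the metallothioneins 1 rose and 1 fell, with a median of -0.04. SELENOW, a selenoprotein, rose by 0.68 ± 0.139 (adjusted p = 0.00466), and DNAJB1 fell by 0.91 ± 0.172 (limma adjusted p = 0.00296). In the mutant line 0 genes of these 4 lists passed, as did 0 of all 29553 probe sets. HMOX1 gave 0.68 ± 0.307 and SELENOW 0.47 ± 0.139 there (adjusted p = 1 each), with all treated mutant arrays above the untreated ones. The difference between the lines did not pass for HMOX1 (1.47, adjusted p = 0.15) or SELENOW (0.22, adjusted p = 0.655). It passed for FTL of the iron list, at 0.76 ± 0.128 (limma adjusted p = 0.0407). FTL rose by 1.00 ± 0.0908 in the WT line (limma adjusted p = 6.34e-05) and gave 0.24 ± 0.0908 in the mutant line.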

How the data were processed

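Per the labels' protocols, total RNA was extracted with Trizol, labelled with biotin and put on Affymetrix arrays, 12 in all. The deposited values are MAS5 signals, an intensity per probe set on a linear scale, made by the authors per the submitters' processing notes. The MAS5 version and settings are not given in the sources used here. Each array had the same trimmed mean, about 500, and no array equalled another.

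From these, signals under 1 (0.337% of values) were set to 1 and log2 was taken. Of 54675 probe sets, 62 controls were left out and 29553 with a group mean above 6.39 were tested. All 12 arrays entered 1 model with a mean per group in limma 3.58.1 (R 4.3.3, lmFit and eBayes with trend), with Benjamini-Hochberg adjustment over all tested probe sets in each of 5 contrasts, and calls at an adjusted p under 0.05, 2-sided. The fit was tested on simulated data with the same SD in all groups for a given probe set. The WT arrays here spread more widely than the mutant arrays, so that run could not check the fit under unequal spread. Probe sets were named from the platform annotation, 41091 with 1 symbol, 1801 with several and 11721 with none. Control ratios were compared with exact permutation tests in Python 3.11.15 (scipy 1.17.1), and figures drawn with matplotlib 3.10.9.

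Every member could be named. Array values were given for members called in any contrast, for the 6 smallest p of each induction and for expressed metallothioneins, and up to 4 genes of each other list could be named. The members, lists and tests were chosen with earlier results of these data known. PIGF, written on the list of genes linked to MTF1 in error for PGF, was left out of its counts after its values were seen. Alternatives were the filter, an offset of 16, quantile normalization, eBayes without trend, fits on just the 2 groups at hand, a replicate block, leave-one-out fits, array weights and averaging the probe sets of a gene. A planned comparison of metallothionein proteins was not run, since no protein sequences were used here. Promoter sequences came from RefSeq's GRCh38.p14, and the build behind the probe sets is not given in the sources used here.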

Additional observations from a re-analysis of the deposited data

How the results depend on the processing

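In the WT line with tetracycline against untreated, the count of called members was 3, and became 5 with array weights, 1 with no filter, 1 without the trend, 0 with only the 6 WT arrays and 0 without the replicate 3 arrays. Leaving out single arrays gave 1 to 8, with 8 without WT tetracycline replicate 1, and over all tested probe sets 2744 to 8077 in place of 5005. That total was 1223 with only the WT arrays and 541 without the replicate 3 arrays. In the untreated lines the count of 3 became 7 with array weights, 5 with only the arrays compared and 5 with a replicate block, and 2 to 8 without single arrays, the highest again without WT tetracycline replicate 1. With tetracycline in both lines 5 became 8 with array weights and 3 without the replicate 3 arrays, and 3 to 7 without single arrays. The mutant line and the difference between the lines had 0 called members under each alternative run. The replicate block gave 4 called members in the WT line with tetracycline and 7 for the lines with tetracycline. The labels link same-numbered arrays only by that number. Their deviations correlated with r of 0.253, 0.24 and 0.0418 in the WT line and 0.137, 0.0258 and 0.21 in the mutant line. Arrays of unlike number gave r of -0.291 to 0.113 in the WT line and -0.172 to 0.0311 in the mutant line. Not every array correlated best with its own number. The main fit does not use the replicate number. Averaging the probe sets of a gene turned the sign for SLC30A6 in the WT line (0.0403, adjusted p = 0.959) and SLC30A4 in the untreated lines (-0.90, adjusted p = 0.332), where dimmer probe sets enter the mean; no called member turned its sign. The same setting ended the calls between the lines with tetracycline of SLC30A4 (0.20, adjusted p = 0.823), SLC30A1 (0.35, adjusted p = 0.513) and SLC39A3 (-0.11, adjusted p = 0.862). Over all alternatives, the call of SLC30A4 in the WT line was lost in 15 of 22 fits (limma adjusted p up to 0.502). That of SLC39A10 was lost in 12 of 22 and that of SLC39A11 in 3 of 21. Under the stricter filter, at 8.92, SLC39A4 and SLC39A11 were not tested. Arrays give no depth, and signals near the level of 6.39, as of MT3 and SLC30A2, limit what can be seen there.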

Other observations

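In the untreated lines 2 of 9 tested genes linked to MTF1 other than metallothioneins were higher in the WT line and 0 lower, beside 5.84% of all genes higher and 6.82% lower. Their median was 0.35, beside -0.09 over all tested probe sets. SELENOH, a selenoprotein, was higher by 0.67 ± 0.129 (SE, n = 3 against 3, limma adjusted p = 0.00499), and thioredoxin, TXN, by 0.49 ± 0.134 (adjusted p = 0.0282). With tetracycline 4 of the 9 were higher and 2 lower in the WT line, beside 13.3% of all genes higher and 14.9% lower.

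MT1HL1, a near copy of MT1 genes outside the rule, read 9.17, 10.44 and 10.24 on WT arrays with tetracycline, 10.19, 10.50 and 10.68 on untreated WT arrays, 10.44, 10.37 and 10.64 on mutant arrays with tetracycline and 10.51, 10.86 and 10.52 on untreated mutant arrays. Its line difference, -0.18 ± 0.26 in untreated arrays (adjusted p = 0.71), did not pass.

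Untreated WT replicate 1 read 11.90 for SLC30A1, against 10.93 and 11.31 on the other untreated WT arrays. Without it the WT change of SLC30A1 with tetracycline was 0.71 and was called (adjusted p = 0.0104). That array is the untreated one within the treated range, so the call rests on which array was left out. Over the 12 fits that left out 1 array the change ran from 0.23 to 0.71. In 11 of these fits it was not called, as in the main fit (limma adjusted p up to 0.399).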
